A study of Homo sapiens with 26 samples.

Results

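PEX3, PEX16, PEX19, PEX5, PEX13, PEX14, PEX10, PEX6 and ABCD3 encode proteins that build the peroxisome, bring its enzymes inside or sit in its membrane. They were chosen by name as peroxisomal biogenesis and membrane genes, and are 9 of the 60663 genes in the RNA-seq files. The question was whether ribosomes make these proteins near the ER, near the outer mitochondrial membrane (OMM) or near neither.

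LOCL-TL was used in HEK293T cells, a human embryonic kidney line. A biotin ligase that blue light switches on, LOV-BirA, tagged nearby ribosomes, which were then pulled down with streptavidin, and the enrichment of a gene is its share of the pulldown over its share of the total input from the same lysate. In ribosome profiling LOV-BirA was at the ER, at the OMM or free in the cytosol, with 2 lysates each and 12 libraries in all. In RNA-seq of whole transcripts pulled down by OMM-tagged ribosomes, 14 libraries covered WT cells with a negative control gRNA, AKAP1 null cells, LARP4 null cells (2 lysates each) and cells without cycloheximide (CHX, 1 lysate). In every line an Avi tag, the peptide that BirA modifies, was knocked into the endogenous RPL29 gene. The ER ligase was fused to Sec61β under the SFFV promoter, and the OMM ligase to GFP and the transmembrane domain of OMP25 under the EF1α promoter. The cytosolic ligase carried no anchor and was also driven by EF1α. The lines with a ligase were sorted, polyclonal pools, whereas AKAP1 null and LARP4 null are each 1 monoclonal line, so that an effect of the gene and a feature of the clone cannot be told apart. CHX, which stops elongating ribosomes, was given before the light, and the labels do not state its use in the null lines, where it is assumed from the general protocol. The lysate without CHX received a shorter light pulse and its genotype is not labelled.

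Peroxisomes take up their proteins after or during synthesis by dedicated routes. In the classical scheme PEX19 binds new membrane proteins in the cytosol and delivers them to PEX3 in the peroxisomal membrane, and PEX16 recruits PEX3. Some membrane peroxins are also known to enter the ER membrane and to reach peroxisomes in vesicles. Matrix enzymes are made on cytosolic ribosomes and carried as folded proteins by the receptor PEX5 to a docking complex of PEX13 and PEX14. A ubiquitin ligase complex that contains PEX10 marks PEX5 for recycling, and an AAA ATPase complex that contains PEX6 pulls it out again. ABCD3, also called PMP70, is an abundant ABC transporter of the peroxisomal membrane that carries fatty acyl-CoA.

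The peroxins of the membrane and the soluble peroxins separated at the ER. Of the 9 genes, 6 passed the minimum of 64 footprints in both ER total inputs and were tested. PEX13, PEX14, PEX3 and ABCD3 were enriched in the ER pulldown, and PEX5 and PEX6 were depleted relative to the library total. Among all 7381 genes tested at the ER, 19.8% were enriched and 72.0% were depleted, with a median log2 enrichment of −0.68. Under TMM scaling, which takes most genes as unchanged, that median is −0.04, the same 4 genes were enriched and neither PEX5 nor PEX6 passed the threshold. ABCD3 was also enriched at the OMM, where PEX3 was near 0 and PEX13, PEX14 and PEX5 were depleted. Of all 6728 genes tested at the OMM, 17.0% were enriched and 46.0% were depleted, with a median of −0.38. Under TMM 0 of the 6 peroxisomal genes tested there were depleted, and 3, ABCD3, PEX16 and PEX3, were enriched. Of 7 of these genes tested in the cytosol none passed the threshold of an adjusted p of 0.05, against 8.01% of the 7162 genes tested there. By edgeR 1 of the 7, PEX14, had an unadjusted p below 0.05, and DESeq2 called 0.

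Levels in the total inputs set how finely each gene could be measured. In CPM, counts scaled to a common coding-sequence total, per kilobase of coding sequence, ABCD3 had the highest footprint density, at 131 ± 27.8 (SD, n = 6 total inputs from 3 lines), followed by PEX3 at 84.1 ± 17.5. PEX14 stood at 43.6 ± 12.4, PEX5 at 38.9 ± 3.18 and PEX13 at 36.2 ± 4.75. PEX16 stood at 21.6 ± 6.54, PEX10 at 14.4 ± 3.79 and PEX6 at 4.77 ± 2.04. The ranges of neighbours in this order overlapped, except between PEX13 (lowest 32.2) and PEX16 (highest 31.6) and between PEX10 (lowest 9.55) and PEX6 (highest 8.25). PEX19 could not be ranked, because the ribosome profiling files give its footprints only in an entry shared with the overlapping genes of the DCAF8 locus. In RNA-seq the order per kilobase of transcript began with ABCD3 at 21.2 ± 1.07 (SD, n = 6 total inputs with CHX), PEX19 at 16.3 ± 1.64 and PEX3 at 14.7 ± 2.14 CPM per kilobase, and ended with PEX16 at 2.40 ± 0.375 and PEX6 at 1.73 ± 0.129.

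The libraries differed in depth and in their medians. Coding-sequence totals ran from 1025114 (OMM pulldown of replicate 1) to 19539527 (ER pulldown of replicate 1) estimated counts, and RNA-seq totals from 38347615 to 100840544 counts. Each pulldown was compared with the total input of its own lysate, and for cytosol replicate 1 alone these came from different sequencing runs, by the run names in the study's files. The paper calls the replicates of OMM ribosome profiling biological, and the labels do not say whether the replicates are separate cultures. The p-values rest on a spread estimated over all 12 libraries of a fit, not on the 2 lysates of a location alone, and this spread may be partly technical. The location label was checked with marker lists. Genes of the ER translocon and membrane insertion machinery had a median log2 enrichment of 1.52 at the ER, where 16 of 19 tested were enriched and 2 were depleted (18 and 0 under TMM). Genes of OMM proteins had a median of 0.09 at the OMM, where 6 of 20 were enriched and 2 were depleted (10 and 1 under TMM). The ER machinery was no lower there, with a median of 0.19 at the OMM and 9 of 19 enriched and 4 depleted (13 and 0 under TMM). Values at the OMM alone therefore did not set the 2 lists apart. The paper's own check was broader, and found genes of mitochondrial proteins strongly over-represented among those enriched at the OMM. In the paper these encode mostly matrix proteins where long and inner membrane proteins where short, classes that the 2 lists do not cover. In the difference of ER minus OMM, the ER machinery had a median of 0.78, with 13 of 19 higher at the ER and 3 lower (13 and 2 under TMM). OMM proteins had a median of −0.37, near the −0.28 of all genes, with 2 of 20 higher and 8 lower (6 and 4 under TMM). In the null lines the targeted genes were lower in the total input. AKAP1 stood at 21.4 and 22.4 CPM per kilobase in WT and at 6.02 and 3.81 in AKAP1 null cells. LARP4 stood at 27.7 and 28.5 in WT and at 9.78 and 9.12 in LARP4 null cells.

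PEX3 is the membrane receptor that takes cargo from PEX19 (GENCODE 44 on GRCh38, chromosome 6, 143450805 to 143490616, plus strand, 373 residues). Its log2 enrichment was 1.01 and 1.13 in the 2 ER lysates, −0.11 and 0.09 at the OMM, and 0.05 and −0.22 in the cytosol. The ER lysates lay above all 4 others. The footprints behind these values were 1273 and 666 in the ER total inputs and 3907 and 2660 in the pulldowns. The fitted log2 enrichment at the ER was 1.07 ± 0.10 (SE, n = 2 lysates, adjusted p = 3.5e-08, edgeR), which is 1.75 above the median of all genes. At the OMM the fitted value was 0.02 ± 0.13 (adjusted p = 0.91), and it changed sign with the choice of read denominator.

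PEX16, the membrane protein that recruits PEX3 (chromosome 11, 45909663 to 45918812, minus strand, 336 residues), missed the ER minimum by a fraction of a footprint, with 63.8 in the total input of replicate 2. Its log2 enrichment was 0.77 and 0.91 at the ER, 0.18 and 0.70 at the OMM, and 0.27 and −0.13 in the cytosol. All 4 lysates with a membrane-anchored ligase had positive values, and the OMM pulldowns held only 26 and 51 footprints. With a minimum of 10 footprints, the ER value was 0.83 ± 0.18 (SE, n = 2, adjusted p = 0.00029, edgeR). The OMM value at the minimum of 64 was 0.47 ± 0.24 (adjusted p = 0.10), and it passed the threshold under TMM scaling, at 0.77.

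PEX19, the cytosolic chaperone and receptor for membrane proteins (chromosome 1, 160276807 to 160286348, minus strand, 299 residues), gave no value of its own in ribosome profiling. The shared entry had a log2 enrichment of −1.12 and −1.07 at the ER, −0.38 and −0.62 at the OMM, and −0.67 and −0.92 in the cytosol. All 6 values were negative, and which gene of the entry they belong to was not tested.

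Both membrane subunits of the docking complex were enriched at the ER. PEX13 (chromosome 2, 61017225 to 61051990, plus strand, 403 residues) had a log2 enrichment of 1.13 and 1.20 at the ER, −0.31 and −0.61 at the OMM, and 0.08 and 0.33 in the cytosol. PEX14 (chromosome 1, 10472288 to 10630758, plus strand, 377 residues) had 0.88 and 1.33 at the ER, −0.78 and −0.25 at the OMM, and −0.24 and −0.34 in the cytosol. For both genes the ER lysates lay above all others. The fitted ER values were 1.16 ± 0.12 (SE, n = 2, adjusted p = 7.7e-08) for PEX13 and 1.09 ± 0.13 (adjusted p = 7.5e-07, both edgeR) for PEX14. At the OMM the fitted values were −0.50 ± 0.17 (adjusted p = 0.017) and −0.48 ± 0.19 (adjusted p = 0.038), close to the median of all genes there, −0.38. These OMM calls were lost without the term that pairs the libraries of a lysate (adjusted p = 0.15 and 0.22) and under TMM scaling, at −0.19 and −0.17. PEX13 also lost its call without OMM replicate 2, at −0.30 (adjusted p = 0.40), and PEX14 without OMM replicate 1, at −0.25 (adjusted p = 0.43).

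PEX10, a RING-type subunit of the ubiquitin ligase complex (chromosome 1, 2403964 to 2413797, minus strand, 326 residues), was too sparse for the main test. It had a log2 enrichment of 0.67 and 0.40 at the ER, −1.28 and −0.01 at the OMM, and −0.18 and 0.06 in the cytosol. The lowest value rests on 5 footprints in the shallowest library. With a minimum of 10 footprints the ER value was 0.55 ± 0.22 (SE, n = 2, adjusted p = 0.027, edgeR) and the OMM value was −0.43 ± 0.37 (adjusted p = 0.37).

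ABCD3 (chromosome 1, 94418389 to 94518666, plus strand, 659 residues) had the opposite order of PEX3, PEX13 and PEX14. Its log2 enrichment was 0.36 and 0.37 at the ER, 1.05 and 1.17 at the OMM, and −0.12 and 0.12 in the cytosol. The OMM lysates lay above the ER lysates, and these above the cytosolic ones. With 582 and 1732 footprints in the OMM pulldowns, it was the best covered of the 9 genes there. The fitted values were 1.12 ± 0.10 (SE, n = 2, adjusted p = 4.9e-08) at the OMM and 0.36 ± 0.09 (adjusted p = 0.0013, both edgeR) at the ER. The ER call of ABCD3 was lost without the lysate term (adjusted p = 0.22). At the OMM 95.1% of the 6728 genes tested had a lower value, and at the ER 80.5% of 7381.

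The soluble components lay below the library total at the ER. PEX5, the cytosolic receptor of matrix enzymes (chromosome 12, 7188685 to 7218574, plus strand, 639 residues), had a log2 enrichment of −1.01 and −0.83 at the ER, −0.24 and −0.91 at the OMM, and 0.07 and 0.15 in the cytosol. PEX6, the AAA ATPase subunit (chromosome 6, 42963865 to 42979181, minus strand, 980 residues), had −0.97 and −1.26 at the ER, −1.65 and −0.24 at the OMM, and 0.42 and −0.19 in the cytosol. For both genes every lysate with a membrane-anchored ligase lay below the cytosolic ones. The fitted ER values were −0.93 ± 0.13 (SE, n = 2, adjusted p = 4.6e-06) for PEX5 and −1.09 ± 0.25 (adjusted p = 0.00051, both edgeR) for PEX6. Relative to the median of all genes these were −0.25 and −0.41, and neither passed the threshold under TMM (−0.29 and −0.45), nor did PEX6 without the lysate term (adjusted p = 0.058). At the OMM, PEX5 stood at −0.63 ± 0.18 (adjusted p = 0.0051), a call that was lost without OMM replicate 2, at −0.25, and without the lysate term (adjusted p = 0.11), while PEX6 missed the minimum there.

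**Figure D1:**
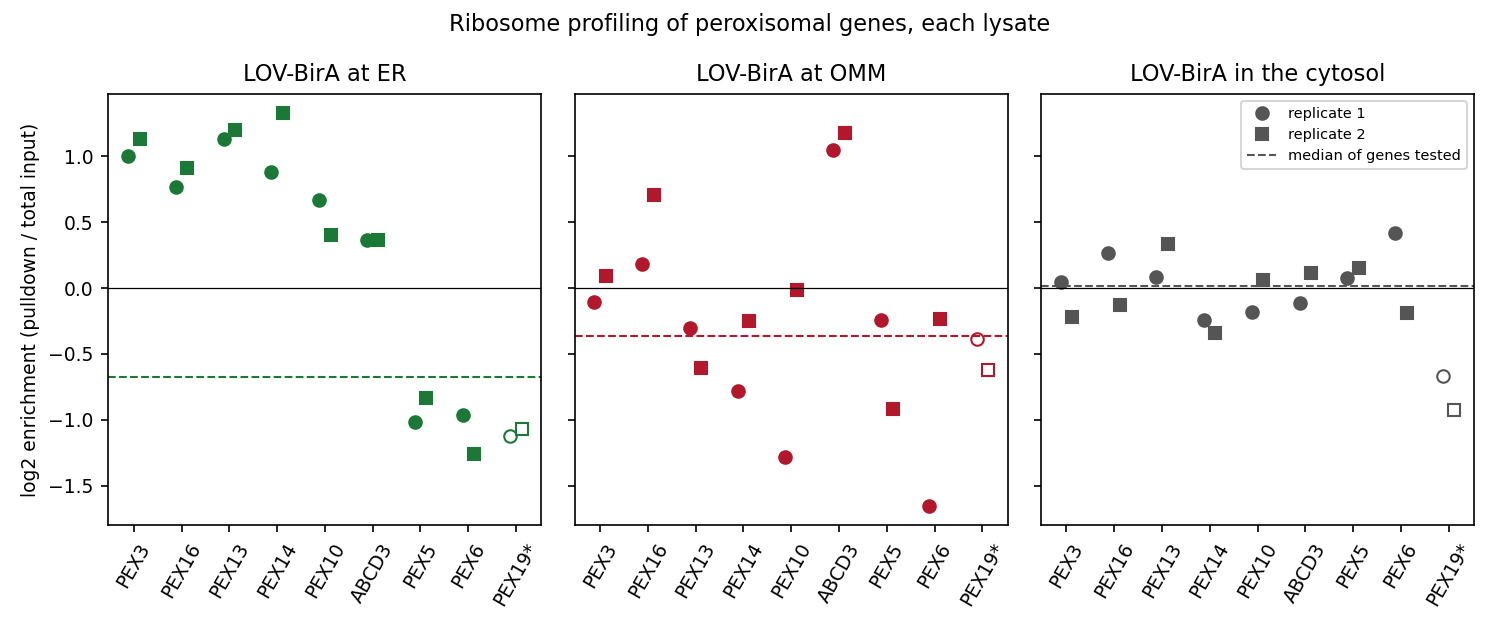
Log2 enrichment (pulldown over total input) of each gene on the vertical axis in each of the 2 lysates of the ER, OMM and cytosol ligase (circles, replicate 1, and squares, replicate 2), with the median of the genes tested as a dashed line and the entry that PEX19 shares with other genes as open symbols with an asterisk. PEX3, PEX13 and PEX14 lie between 0.88 and 1.33 at the ER and at most at 0.09 at the OMM, whereas ABCD3 is higher at the OMM (1.05 and 1.17) than at the ER (0.36 and 0.37).

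Differences between locations were tested in the same fit. Against the cytosolic ligase, 4 of 6 genes were higher at the ER (19.6% of 6809 genes in that direction) and 2 were lower (62.5%). The differences in log2 enrichment were 1.38 ± 0.19 for PEX14, 1.13 ± 0.15 for PEX3, 0.97 ± 0.17 for PEX13 and 0.37 ± 0.13 for ABCD3. PEX5 and PEX6 were lower, by −1.04 ± 0.19 and −1.21 ± 0.33 (SE, n = 2 lysates a location, adjusted p from 3.3e-06 to 0.016, edgeR). The difference for ABCD3 missed the threshold when ER replicate 1, ER replicate 2 or cytosol replicate 1 was left out, with 0.25 in the last case. The calls of PEX5 and PEX6 were lost under TMM (−0.40 and −0.58, adjusted p = 0.083 and 0.17) and under DESeq2. Without the lysate term, ABCD3, PEX3 and PEX6 missed the threshold (adjusted p = 0.38, 0.068 and 0.16).

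At the OMM, 1 of 6 genes was higher than with the cytosolic ligase (16.5% of 6465 genes) and 2 were lower (39.7%). ABCD3 was higher by 1.12 ± 0.14 (SE, n = 2, adjusted p = 4.0e-06, edgeR). PEX5 and PEX13 were lower, at −0.74 ± 0.22 (adjusted p = 0.0086) and −0.69 ± 0.21 (adjusted p = 0.011). Both were lost without OMM replicate 2 (−0.36 and −0.49) and under TMM (−0.44 and −0.39). Without the lysate term none of the 3 passed (adjusted p = 0.087 for ABCD3 and 0.20 for the others).

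The direct comparison of ER and OMM could be made for 5 genes. PEX13, PEX14 and PEX3 were higher at the ER, by 1.66 ± 0.21, 1.57 ± 0.23 and 1.05 ± 0.17 in log2 enrichment (SE, n = 2 lysates a location, adjusted p of 1.9e-06, 1.6e-05 and 3.4e-05, edgeR), where 18.6% of 6675 genes were higher. ABCD3 was lower at the ER than at the OMM, with a difference of −0.75 ± 0.13 (adjusted p = 0.00011), as were 31.0% of genes. PEX5 had a difference of −0.29 ± 0.22 (adjusted p = 0.29) near the median of all genes, −0.28. With a minimum of 10 footprints, PEX16 had 0.36 ± 0.30 (adjusted p = 0.35) and PEX10 had 0.98 ± 0.43 (adjusted p = 0.074, both edgeR). Of 4 other peroxins tested, 0 were higher and 0 lower by edgeR or DESeq2, also at an unadjusted p below 0.05. Their edgeR differences ran from −0.30 to 0.30. Without the lysate term PEX3 and ABCD3 missed the threshold (adjusted p = 0.15 and 0.21).

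The share of genes called at the OMM shows how these values sit among the rest. At the OMM 17.0% of the 6728 genes tested were enriched, as was 1 of 6 peroxisomal genes, and 46.0% were depleted, as were 3 of 6. The median over the 6 genes was −0.23 at the OMM and 0.71 at the ER, beside −0.38 and −0.68 over all genes. The plot of ER against OMM values shows PEX3, PEX13 and PEX14 to the right of most genes and ABCD3 above them.

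**Figure D2:**
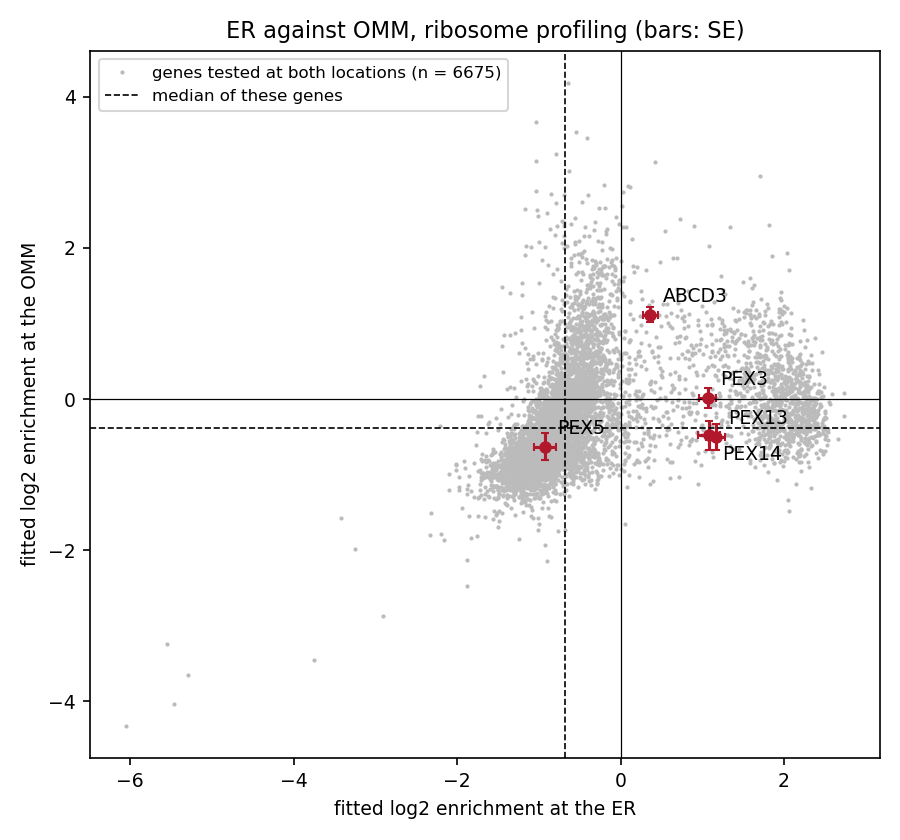
Fitted log2 enrichment at the ER (horizontal) and at the OMM (vertical) for the 6675 genes tested at both locations (grey), with the 5 peroxisomal genes tested at both in red and SE as bars; dashed lines are the medians of these genes. PEX3, PEX13 and PEX14 lie at ER values of 1.07 to 1.16, ABCD3 at an OMM value of 1.12, and PEX5 at −0.93 and −0.63 with the bulk of the genes.

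Hydrophobic segments of the proteins were set beside these values. In the translated canonical transcripts, a hydrophobic segment was taken as any window of 19 residues whose average on the Kyte-Doolittle scale reached 1.6. PEX3, PEX16, PEX13, PEX10 and ABCD3 had one, beginning at residues 117, 110, 233, 218 and 86. PEX14, a membrane protein with a single known membrane span, fell short with 1.33, and PEX5, PEX6 and PEX19 had none. With a stricter threshold of 2.0, PEX16 and PEX13 kept a segment and PEX3, PEX10 and ABCD3, whose highest windows reached 1.73, 1.83 and 1.77, did not. All 5 genes with a segment at 1.6 had positive log2 values in both ER lysates, and so did PEX14. Among all genes tested at the ER with a matched protein, 57.6% of the 2120 with a segment and 4.53% of the 5235 without were enriched. At 2.0 these shares were 84.1% of 1152 and 7.88% of 6203. At the OMM the shares were 18.7% of 1934 and 16.2% of 4772. Of the peroxisomal genes with a segment at 1.6, ABCD3 is the longest protein and has its first window at that threshold nearest to the N terminus. Known membrane spans can fall short of this threshold, as in PEX14, so this order need not be that of the real spans. Some peroxisomal matrix enzymes also reach the threshold, among them ACOX3 at 2.28 and ECI2 at 1.94. A window that passes is therefore not in itself a membrane span, and its position need not mark one. In PEX10 88 residues, in PEX13 148, in PEX3 231 and in ABCD3 326 follow the last such window, and in PEX16 19.

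Of the other peroxins 2 of 5 tested were enriched at the ER and 2 were depleted, beside 19.8% and 72.0% of all genes, and under TMM 3 were enriched and 0 depleted. PEX2, another subunit of the ubiquitin ligase complex, stood at 0.98 ± 0.22 (SE, n = 2, adjusted p = 0.00047) and PEX11A, a membrane protein of peroxisome division, at 0.84 ± 0.16 (adjusted p = 0.00011). PEX7, a soluble receptor of matrix enzymes, was depleted at −0.53 ± 0.17 (adjusted p = 0.0084, all edgeR). It turned to 0.11 under TMM and missed the threshold without the lysate term (adjusted p = 0.17) and when either ER lysate was left out. At the OMM 1 of 4 was depleted and by edgeR none was enriched (1 at an unadjusted p below 0.05, and 1 by DESeq2), beside 46.0% and 17.0% of all genes.

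Other peroxisomal membrane proteins showed values of both signs. At the ER, 2 of 3 tested were enriched and 1 was depleted, beside 19.8% and 72.0% of all genes. The enriched ones were TMEM135 at 1.36 ± 0.12 (adjusted p = 1.2e-08) and the carrier SLC25A17 at 0.82 ± 0.13 (adjusted p = 1.5e-05, both edgeR). FAR1, a tail-anchored reductase of ether lipid synthesis, was depleted at −1.1 ± 0.11 (SE, n = 2, adjusted p = 4.5e-08, edgeR). At the OMM SLC25A17 was enriched at 0.63 ± 0.17 (adjusted p = 0.0041), which turned to −0.03 when footprints over all exons were counted and missed the threshold without the lysate term (adjusted p = 0.068). FAR1 and TMEM135 were depleted there, at −0.78 ± 0.13 and −0.49 ± 0.17 (adjusted p = 5.7e-05 and 0.021, edgeR), and TMEM135 stood at −0.18 under TMM, past no threshold, nor did it pass without the lysate term (adjusted p = 0.31).

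Proteins that live on both peroxisomes and mitochondria divided between the ER and the OMM. At the ER 3 of 6 tested were enriched and 2 were depleted (4 and 0 under TMM), beside 19.8% and 72.0% of all genes. The ubiquitin ligase MUL1 and the membrane protein extractor ATAD1 each had a log2 enrichment of 1.57, with SE of 0.12 and 0.13, and the deubiquitinase USP30 had 1.45 ± 0.15 (adjusted p of 2.4e-09, 3.2e-09 and 8.9e-08, edgeR). None of these 3 was enriched at the OMM. There 2 of 6 were enriched (17.0% of all genes), the fission factors FIS1 at 1.22 ± 0.14 and MFF at 0.92 ± 0.15 (adjusted p = 1.8e-06 and 4.9e-05, edgeR). The antiviral adaptor MAVS was depleted at both, at −0.95 ± 0.13 and −0.66 ± 0.17, with no call at either under TMM. MFF, the other member depleted at the ER, stood at −0.60 ± 0.12, which turned to 0.03 under TMM and missed the threshold without the lysate term (adjusted p = 0.070).

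Peroxisomal matrix enzymes, which PEX5 and PEX7 import, lay near the median of all genes at the ER. It was not examined, here or in the comparison of AKAP1 null and WT cells, whether any of them is also sent to mitochondria. There 14 of 17 tested were depleted and 1 was enriched, beside 72.0% and 19.8% of all genes, with a list median of −0.76, which is −0.08 relative to the median of all genes. Under TMM 4 were depleted and 2 enriched, with a median of −0.12. EHHADH stood at −1.31 ± 0.21 and CAT, catalase, at −1.07 ± 0.14 (adjusted p = 1.3e-05 and 1.3e-06, edgeR). GSTK1, a glutathione transferase, was the enriched member, at 1.11 ± 0.10 (adjusted p = 1.2e-08). At the OMM 7 of 16 were depleted and 1 was enriched, beside 46.0% and 17.0% of all genes. Among the depleted were LONP2, the peroxisomal protease, at −0.91 ± 0.13, SCP2 at −0.87 ± 0.19 and AGPS at −0.84 ± 0.22. GSTK1 was again the enriched member, at 0.64 ± 0.11. Under TMM 4 were depleted and 2 enriched. SCP2 stood at −0.12 over all exons (adjusted p = 0.28) and lost its call under DESeq2, without the lysate term and without OMM replicate 2. AGPS lost its call under TMM (adjusted p = 0.056), under DESeq2 and without OMM replicate 1, and GSTK1 without the lysate term (adjusted p = 0.095).

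Among OMM proteins, TOMM20 and MIGA1 were enriched at the ER (1.55 ± 0.10 and 1.43 ± 0.13), and TOMM7, MIGA1 and FUNDC2 at the OMM (2.12 ± 0.09, 1.17 ± 0.16 and 0.86 ± 0.16). VDAC1 and BNIP3L were depleted at the ER (−0.89 ± 0.10 and −0.75 ± 0.15) and TOMM70 at the OMM (−0.58 ± 0.10). BNIP3L lay near the median of all genes and lost its call under TMM (−0.11, adjusted p = 0.56), under DESeq2 and without the lysate term (adjusted p = 0.088). VDAC1 lost its call under DESeq2 (adjusted p = 0.051), and TOMM70 under DESeq2 (adjusted p = 0.10) and without the lysate term (adjusted p = 0.16). The ER machinery was led at the ER by EMC7, SEC61A1, EMC1 and EMC3 (2.29, 2.25, 2.23 and 2.13). At the OMM its highest values were those of EMC6, SEC61G, SPCS1 and SSR4 (2.30, 1.53, 1.18 and 1.15). PEX3, PEX13 and PEX14 therefore had lower ER values than the leading ER genes by about 1 log2 unit, and ABCD3 at the OMM was close to MIGA1.

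**Figure D3:**
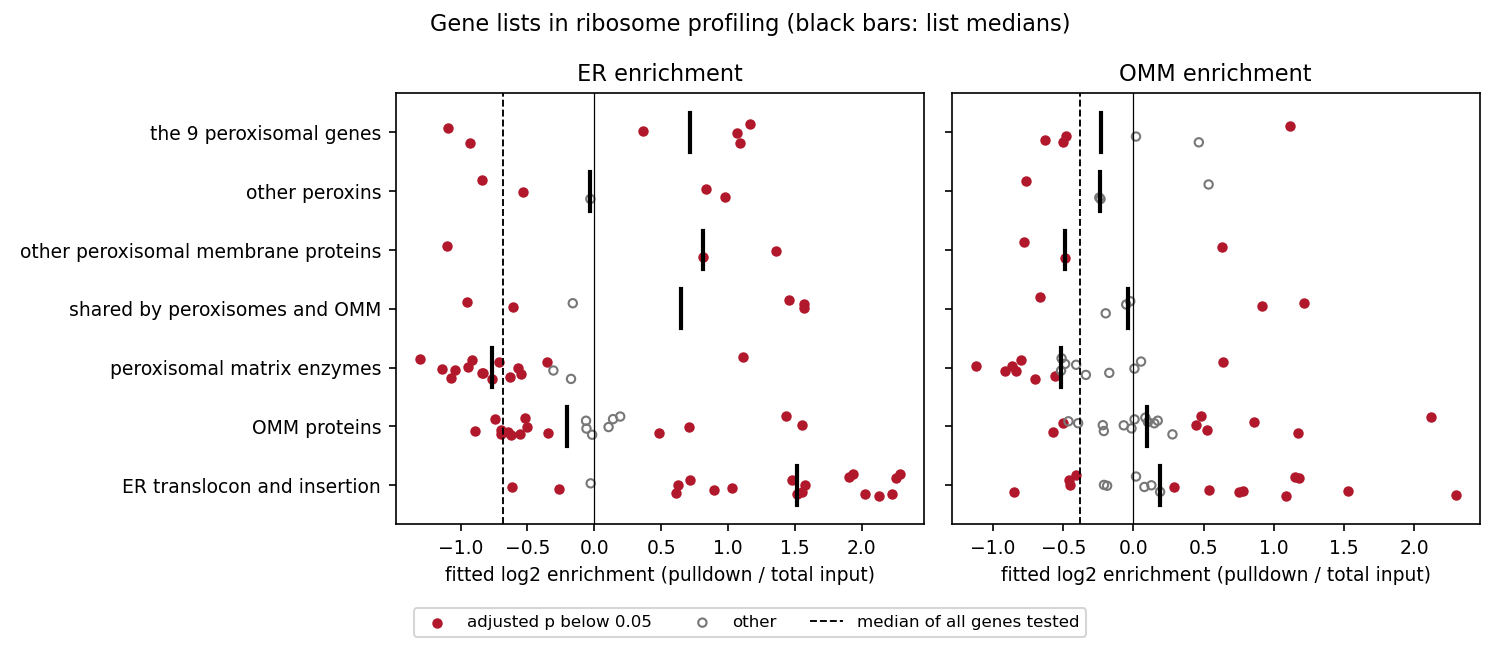
Fitted log2 enrichment (horizontal) of the genes tested in each list at the ER (left) and the OMM (right); red points have an adjusted p below 0.05, open points do not, black bars are list medians and dashed lines the median of all genes tested. At the ER 14 of 17 matrix enzymes are depleted (72.0% of all genes, and 4 of 17 under TMM), and 4 of 6 peroxisomal genes and 16 of 19 genes of the ER machinery are enriched (19.8% of all genes).

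By distance over the 6 lysate values, the genes nearest to the median profile of the 5 peroxisomal genes with at least 64 footprints in every total input were TOB1, ATP6V0A1, NDFIP2, MEN1 and WFS1. The median profile was 0.88 and 1.13 at the ER, −0.24 and −0.25 at the OMM, and 0.05 and 0.12 in the cytosol. TOB1 had a Euclidean distance of 0.27 from it, and WFS1 of 0.37, among 6434 genes. The 5 genes did not share a profile, since PEX5 was depleted at the ER and ABCD3 was highest at the OMM.

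RNA-seq asked which transcripts OMM-tagged ribosomes held, and all 9 genes could be tested. In WT cells with CHX 3 were enriched (20.2% of 13856 genes) and 2 depleted (45.6%), with a median over all genes of −0.28. PEX16 had a log2 enrichment of 0.66 in both lysates, PEX10 of 0.53 and 0.58, and ABCD3 of 0.36 and 0.56. PEX13 had −0.63 and −0.64, and PEX5 had −0.29 and −0.20. PEX3 (−0.03 and −0.04), PEX14 (−0.05 and −0.17), PEX19 (−0.12 and −0.14) and PEX6 (−0.30 and −0.38) did not pass the threshold.

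The fitted values in WT were 0.66 ± 0.13 for PEX16, 0.56 ± 0.09 for PEX10 and 0.46 ± 0.09 for ABCD3 (SE, n = 2, adjusted p = 0.0026, 0.00086 and 0.0026, edgeR). PEX16 and ABCD3 lost their calls without WT replicate 2 (0.66 and 0.36). PEX13 stood at −0.63 ± 0.09 (adjusted p = 0.00032), a call kept in each setting tried. PEX5 stood at −0.24 ± 0.08 (adjusted p = 0.031), which became 0.06 under TMM.

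In AKAP1 null cells the OMM pulldown of ABCD3 rose. AKAP1 is a protein of the OMM that binds mRNA and kinases. ABCD3 had a log2 enrichment of 1.94 and 1.88 in the AKAP1 null lysates, beside 0.36 and 0.56 in WT. The AKAP1 null lysates lay above all others. They rest on 8117 and 6878 counts in the total inputs and 35234 and 33111 in the pulldowns. The difference was 1.45 ± 0.13 (SE, n = 2 lysates a genotype, adjusted p = 0.00042, edgeR), above 99.7% of the 13856 genes tested, and 1.27 above the median shift of 0.19. It passed the threshold in every setting tried.

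PEX3 also rose, with 0.62 and 0.64 in AKAP1 null cells beside −0.03 and −0.04 in WT, so the genotypes did not overlap. The difference was 0.67 ± 0.13 (SE, n = 2, adjusted p = 0.012, edgeR). It missed the threshold under TMM (0.50, adjusted p = 0.074), under DESeq2 (0.52, adjusted p = 0.051), without the lysate term (adjusted p = 0.31) and when any 1 lysate was left out (adjusted p from 0.095 to 0.16). Thus 2 of 9 genes were higher (6.52% of all genes) and none was lower (7.96%). By edgeR 4 were higher and 0 lower at an unadjusted p below 0.05, and DESeq2 called 1 higher, ABCD3, and 0 lower.

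The other 7 genes had differences from −0.27 (PEX16) to 0.42 (PEX14), with adjusted p of 0.088 or more. PEX14 had 0.42 and 0.19 in AKAP1 null cells, above both WT values, and PEX13 had −0.32 and −0.25, also above both. Within AKAP1 null cells themselves 5 of 9 genes were enriched (13.9% of all genes) and 2 were depleted (28.1%). ABCD3 at 1.91 ± 0.10 and PEX3 at 0.63 ± 0.09 were followed by PEX16 at 0.40 ± 0.13, PEX10 at 0.37 ± 0.09 and PEX14 at 0.31 ± 0.10 (adjusted p from 5.9e-06 to 0.043, edgeR). PEX13 stood at −0.28 ± 0.09 and PEX6 at −0.56 ± 0.16 (adjusted p = 0.030 and 0.022), both past no threshold under TMM. When either AKAP1 null lysate was left out, 2 genes were enriched and none depleted, and without the lysate term 1 gene, ABCD3, was enriched and none depleted.

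Total mRNA of these genes did not differ detectably in AKAP1 null cells, in a test with little power. By edgeR it called no gene at all, and so not AKAP1 itself, whose level in the total input was lower in these cells. The lack of a call is therefore weak evidence of equal levels. None of the 9 passed the threshold by edgeR or DESeq2, or had an unadjusted p below 0.05, against 0% of 13977 genes by edgeR (15 by DESeq2, and 489 by edgeR at an unadjusted p below 0.05). The differences ran from −0.19 (PEX10) to 0.21 (PEX19) in log2, with 0.08 ± 0.11 for ABCD3 and 0.18 ± 0.20 for PEX3 (SE, n = 2).

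Other genes of the peroxisomal membrane also moved in AKAP1 null cells. Of 8 other peroxisomal membrane proteins, 3 were higher in AKAP1 null cells and 1 was lower, beside 6.52% and 7.96% of all genes. Under TMM and under DESeq2 2 were higher and 1 was lower. ABCD2, an ABC transporter related to ABCD3, had a log2 enrichment of 1.21 and 0.67 in AKAP1 null cells and of −0.99 and −0.49 in WT, on as few as 43 counts in a library. The difference was 1.72 ± 0.37 (SE, n = 2, adjusted p = 0.019, edgeR). The call was lost when any 1 of the WT and AKAP1 null lysates was left out, and without the lysate term (adjusted p = 0.22). TMEM135 was higher by 0.64 ± 0.12 (adjusted p = 0.013), though not past the threshold under TMM (0.47), without the lysate term (adjusted p = 0.21) or when any 1 lysate was left out. PXMP2, a channel protein, went the other way, from 1.97 and 1.98 in WT to 0.59 and 0.23, a difference of −1.56 ± 0.18 (adjusted p = 0.00093). The paper reports that, without AKAP1, OMM enrichment fell strongly for short coding sequences and rose for long ones. PXMP2 is the shortest of these 8 proteins, and ABCD3 is the longest of the 9 members after PEX6.

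In the lists beside them, none of 8 other peroxins passed the threshold by edgeR or DESeq2, or had an unadjusted p below 0.05. Over all genes 6.52% were higher in AKAP1 null cells and 7.96% lower. Of the 7 proteins shared with mitochondria, FIS1 and MFF were lower (−1.37 ± 0.14 and −0.59 ± 0.14) and USP30, ATAD1 and MUL1 were higher (0.72 ± 0.13, 0.61 ± 0.15 and 0.58 ± 0.14). Under TMM 1 of these 7 was higher and 2 were lower. MFF, USP30, ATAD1 and MUL1 each lost the call without the lysate term (adjusted p = 0.18, 0.071, 0.10 and 0.16) and when any 1 WT or AKAP1 null lysate was left out, and FIS1 passed in each setting tried. Among 23 matrix enzymes CRAT and AGPS were higher (1.20 ± 0.14 and 0.47 ± 0.12) and NUDT7, ECI2, ACOT8 and GNPAT were lower (−1.08 ± 0.25, −0.95 ± 0.14, −0.80 ± 0.17 and −0.50 ± 0.13). Without the lysate term none of these 6 passed (adjusted p = 0.11 for CRAT, 0.15 for AGPS, 0.12 for NUDT7, 0.26 for ECI2, 0.089 for ACOT8 and 0.65 for GNPAT). AGPS, NUDT7, ACOT8 and GNPAT also lost the call when any 1 of these lysates was left out, ECI2 without WT replicate 2 or AKAP1 null replicate 2, and AGPS under TMM. GSTK1 at the OMM, MFF at the ER, MUL1, AGPS and GNPAT are named here after their values were seen. Among OMM proteins, TOMM7, TOMM5 and TOMM22 were lower by −1.86 ± 0.13, −1.31 ± 0.12 and −1.15 ± 0.14, whereas MIGA1 was higher by 1.19 ± 0.16. In the ER machinery, EMC6, SEC61G, SPCS1 and GET1 were lower (−1.80, −1.43, −0.70 and −0.58). SPCS1 and GET1 lost the call without the lysate term (adjusted p = 0.12 and 0.21) and when any 1 lysate was left out, and TOMM22 without the lysate term (adjusted p = 0.064). Of the genes named as higher in AKAP1 null cells, MUL1 encodes the shortest protein. All those named as lower encode a shorter protein than MUL1, except ECI2 and GNPAT. Whether protein length accounts for the shifts, that of ABCD3 included, was not tested.

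In LARP4 null cells none of the 9 genes differed from WT past the threshold by edgeR or DESeq2, and 1 of them, PEX13, had an unadjusted p below 0.05 by edgeR. LARP4 is an RNA-binding protein of the La-related family. Across all genes 0% of 13856 passed by edgeR, with 2270 at an unadjusted p below 0.05 and 456 adjusted calls by DESeq2. Without LARP4 null replicate 1, where the lone lysate is assumed to vary like the other groups, 4521 genes were higher and 1143 lower, and without LARP4 null replicate 2 these were 3 and 90, with 0 of the 9 genes called in either case. The differences of the 9 genes ran from −0.07 (PEX16) to 0.29 (PEX13). ABCD3 had a log2 enrichment of 0.52 and 0.68, beside 0.36 and 0.56 in WT, and a difference of 0.14 ± 0.13 (SE, n = 2, adjusted p = 0.53). Within LARP4 null cells, 3 genes were enriched (22.8% of all genes), ABCD3 at 0.60, PEX16 at 0.59 and PEX10 at 0.53, and PEX13 was depleted at −0.34 (30.0%). Total mRNA of the 9 genes gave no call in LARP4 null cells either, by edgeR or DESeq2 or at an unadjusted p below 0.05, where 0.0143% of 13977 genes were called.

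The single lysate without CHX has no replicate, and its values are given without a test. ABCD3 had a log2 enrichment of −0.46 there, on 12571 counts in the total input and 6248 in the pulldown, and lay below all 6 lysates with CHX. PEX16 at 0.66 and PEX10 at 0.42 lay within the range of the lysates with CHX. PEX3 at 0.11 did so too. PEX6 at 0.34 lay above all 6, whose highest value was −0.25. The median over 13856 genes was −0.11 without CHX, beside −0.27 and −0.30 in WT. The absence of CHX and the shorter light pulse cannot be told apart.

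**Figure D4:**
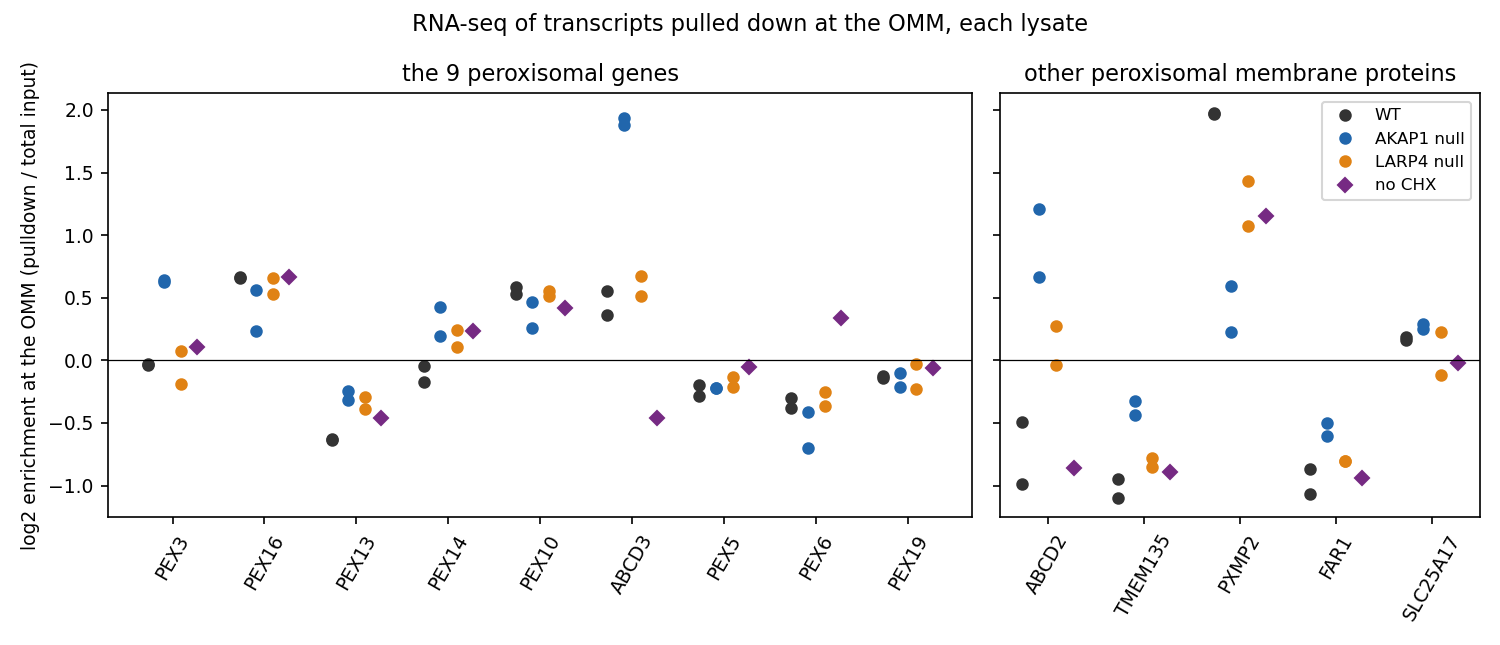
Log2 enrichment in RNA-seq of the OMM pulldown (vertical) in each lysate for the 9 peroxisomal genes (left) and for 5 other peroxisomal membrane proteins (right), with WT, AKAP1 null, LARP4 null and the lysate without CHX in separate colours. ABCD3 lies at 1.94 and 1.88 in AKAP1 null cells and at −0.46 without CHX, and PXMP2 falls from 1.97 and 1.98 in WT to 0.59 and 0.23 in AKAP1 null cells.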

How the data were processed

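For ribosome profiling, the authors aligned reads left after an rRNA and tRNA filter to GRCh38 and deposited estimated counts per gene region from plastid, with uniquely aligned footprints of 27 to 36 nt spread over central positions (13 nt ignored at each end, 1 mismatch in the mask). The denominator of the deposited RPKM is every read on a transcript, and these values were used only for library sizes in an alternative. For RNA-seq, the authors aligned reads with STAR and deposited counts from featureCounts. The deposited values named FPKM were treated as a score, since they exceed what counts and gene lengths give, and were not used. In RNA-seq 1 broken entry was left out.

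Log2 enrichment per lysate used CPM on coding-sequence totals, or CPM with 0.5 counts added in RNA-seq. Tests used edgeR 4.0.16 (quasi-likelihood, two-sided, Benjamini-Hochberg over all genes tested) in R 4.3.3 on counts rounded to whole numbers, with library totals as scale, a term per lysate and a pulldown effect per location or genotype, 12 libraries a fit. SE was taken as the fitted log2 value over the root of F. Total inputs were compared with TMM and no block. Genes needed 64 footprints in every total input compared, or a mean of 64 counts. That both libraries share a lysate is stated in the study's methods, and their deviations from the group means correlated with r from 0.60 to 0.88 over genes, 1 pair of lysates a group. Entries shared by several genes stayed in the totals and were not tested.

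Named genes are the 9 members, genes of the lists with an adjusted p below 0.05 at the ER, at the OMM or between AKAP1 null and WT (the 4 largest changes a list, of which some are not reported here), the 5 genes nearest to the median profile, and AKAP1 and LARP4. Members and lists were chosen with earlier results of these data known, so no list test was run. SEC61B and SYNJ2BP were left out because the transgenes carry parts of them. Alternatives were TMM, DESeq2 1.42.0, no lysate term, a lower and a higher minimum, other read denominators and leaving out each lysate. The fits were tested on simulated data. Coordinates and proteins are from GENCODE 44. Figures used Python 3.11.15 and matplotlib 3.10.9.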

Additional observations from a re-analysis of the deposited data

Results flagged for a closer look

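The effect of pulldown differed between the ER and the OMM in a test of the difference itself for PEX3 (ER minus OMM, 1.05), PEX13 (1.66), PEX14 (1.57) and ABCD3 (−0.75). It also differed between AKAP1 null and WT cells for ABCD3 (1.45) and PEX3 (0.67). All 6 are fitted log2 differences from edgeR with an adjusted p below 0.05, and without the lysate term those of PEX3 and ABCD3 between ER and OMM and that of PEX3 between AKAP1 null and WT missed it. Groups of 2 lysates were too small to look for single lysates that stand apart.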

How the results depend on the processing

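Scaling and the lysate term changed the most member counts. TMM moved the median of all genes from −0.68 to −0.04 at the ER and from −0.38 to −0.07 at the OMM. Under TMM and under DESeq2, 0 members were depleted at the ER, 0 at the OMM, 0 at the ER or the OMM against the cytosol, 0 in AKAP1 null and 0 in LARP4 null cells, and 1 in WT cells. At the OMM 3 members were enriched under TMM (ABCD3, PEX16 and PEX3) and 2 under DESeq2. Between AKAP1 null and WT 1 member, ABCD3, was higher under each. PEX5 in WT RNA-seq reversed, to 0.056 under TMM and 0.046 under DESeq2. PEX3 at the OMM turned to −0.00029 with the library size behind RPKM and to −0.033 with footprints over all exons. PEX7 at the ER turned to 0.11 under TMM and 0.075 under DESeq2, MFF at the ER to 0.033 under TMM, and SLC25A17 at the OMM to −0.032 over all exons. With the library size behind RPKM 2 members were enriched in the cytosol.

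Without the replicate block, that is with no term that pairs the pulldown and total input of a lysate, 1 member was depleted at the ER and 0 at the OMM. Against the cytosol 2 were then higher and 1 lower at the ER, and 0 higher and 0 lower at the OMM, and 0 were lower at the ER than at the OMM. In RNA-seq without the block 1 was depleted in WT, 1 enriched and 0 depleted in AKAP1 null, 1 enriched in LARP4 null, and 1 was higher in AKAP1 null than in WT. With the higher minimum, which leaves fewer members to test, 1 was depleted at the ER and 1 at the OMM, 1 was higher and 1 lower at the ER than in the cytosol, 1 lower at the OMM than in the cytosol, and 1 higher at the ER than at the OMM. With a minimum of 10, 3 were enriched in AKAP1 null cells.

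When each lysate was left out in turn, counts ran from 1 to 2 for members depleted at the OMM, from 0 to 2 for members lower at the OMM than in the cytosol, from 1 to 3 for members enriched in WT and from 1 to 1 for those depleted there, from 2 to 2 and 0 to 0 in AKAP1 null, and from 1 to 1 for members higher in AKAP1 null than in WT. PEX3 at the OMM ran from −0.096 to 0.094. With a lysate left out, the lone one is assumed to vary like the other groups. The enrichment of PEX3, PEX13 and PEX14 at the ER, of ABCD3 at the OMM and the rise of ABCD3 in AKAP1 null cells passed in each setting in which the gene was tested. Beyond the scaling and the minimum, the cause of a lost call was not tested. Depth limits PEX6, PEX10 and PEX16 at the OMM, with 5 to 51 footprints in a pulldown.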
